A study of Caenorhabditis elegans with 53 samples.

Results

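Neurons of first-stage lin-4 null larvae were compared with neurons of control larvae of the same age in 7 of the 53 libraries of the series. The libraries were chosen by their labels alone: 3 neuronal libraries of lin-4 null L1 larvae and 4 neuronal libraries of control L1 larvae of the nematode Caenorhabditis elegans. The null animals carried the otIs790 transgene and the allele lin-4(e912), and the controls carried otIs790 alone, so that the nuclear tag was present in both groups. The tag, labelled UPN INTACT, marks neuronal nuclei so that they can be pulled out of a preparation of all nuclei of the animal, and the RNA measured was therefore nuclear and came from neurons pooled over about 600000 animals per replicate. Larvae of both genotypes were synchronised, grown on NA22 bacteria and collected 8 ± 1 h after plating on food, in the first larval stage (L1). Adult neurons of the same 2 genotypes served as a second stage: 4 libraries of lin-4 null adults collected at 57 ± 2 h and 7 libraries of control adults collected at 53 ± 2 h, about 200000 animals each, the nulls later because the labels describe them as slower to develop. The controls were the unmutated tagged strain, and the labels name neither a rescue nor a different lin-4 allele, so what the e912 allele and its strain background each contribute cannot be told apart.

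lin-4 encodes a small regulatory RNA, the founding microRNA, and sits at the head of the heterochronic pathway that times events of larval development. It is known to rise late in the first larval stage and to repress lin-14, a nuclear regulator of early larval fates, through sites in the 3′ untranslated region of the lin-14 mRNA, and it acts on lin-28 as well. In its absence, later larval fates are delayed or lost and early ones are repeated. In neurons the lin-4 and lin-14 pair is known to separate juvenile from adult gene expression, so the comparison of L1 neurons asks how much of the neuronal transcriptome depends on lin-4 at a time when lin-14 is still high in control animals.

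Levels are given as scaled counts, in which the authors rescaled the reads of each library to a common sum over their set of 7974 neuronal genes (3999855 to 4000282 per library) and 1 median-ratio factor per library was divided out here (0.924 to 1.06). The 4 control libraries held 4123812 to 8991135 reads in this set. The depth of the null libraries is not given in the sources used here, but every whole number up to at least 177 occurred in each, which needs at least 3988732 reads in the set. Of the labelled cell type, the 31 pan-neuronal genes tested had medians of 11.5, 11.5 and 11.8 on the log2 scale in the null libraries, against 11.5, 11.7, 11.8 and 11.6 in the control libraries. Markers of body wall muscle, pharynx, intestine and germline lie outside the authors' set, and their level in null libraries was not analysed here. The 7 glial genes tested had medians of 5.59, 5.92 and 5.67 in null libraries, against 6.19, 5.95, 5.64 and 5.67 in control libraries, with overlap. Libraries differed in ways that genotype did not explain: null library 1 and control library 1 stood apart from the others on the principal component with 35.6% of the variance, and control library 4 stood apart on the next one, with 28.6%.

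In a fit without pairing, neurons of lin-4 null L1 larvae differed from control neurons in few genes by more than the spread between libraries. Of 5868 genes with enough signal to be tested, 2 passed an adjusted p of 0.05 (0.0341%), both lower in lin-4 null neurons and 0 higher. Both were genes of the lin-4 locus itself: F59G1.4, the gene whose intron holds lin-4, and F59G1.13, a short gene in the same intron. The median log2 fold change over all tested genes was -0.0036, and 154 genes differed by more than 1 on the log2 scale. The test was limma with Benjamini-Hochberg adjustment over all tested genes, at a median half-width of the 95% interval of 0.67 on the log2 scale, or 0.44 for the 2776 genes with a mean of at least 100 scaled counts. At an unadjusted p under 0.05 there were 230 genes (3.92%), of which 90 were higher (1.53%) and 140 lower (2.39%). This fit leaves out the replicate numbers, and libraries that share a number varied together, as described below, so its spread includes that shared variation. With the replicate number added as a block, limma gave 677 genes (11.5%) at an unadjusted p under 0.05 and 20 at an adjusted p under 0.05.

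F59G1.4 had 223, 280 and 308 scaled counts in the 3 lin-4 null libraries, against 772, 639, 736 and 667 in the 4 control libraries. Every null library lay below every control library, and the null mean was 38.5% of the control mean. The log2 fold change was -1.38 (SE 0.17, 95% interval -1.76 to -1.01, limma adjusted p = 0.0252). In the files' coordinates, whose build is not named, F59G1.4 lies on the plus strand of chromosome II from 5896151 to 5904448 and has 13 exons. Leaving out 1 library at a time kept the log2 fold change between -1.24 and -1.48, but the adjusted p stayed under 0.05 only without control library 1 (0.0385) and was otherwise between 0.0695 and 0.164, without control library 2 and control library 3 at those ends and at 0.091, 0.105 and 0.122 without null libraries 1, 2 and 3 and 0.106 without control library 4.

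F59G1.13 had 0, 2.97 and 2.16 scaled counts in null libraries, against 24, 40.6, 33.3 and 33.8 in control libraries. The groups did not overlap, and the null mean was 5.2% of the control mean. The log2 fold change was -3.84 (SE 0.55, limma adjusted p = 0.0461). It lies on the plus strand from 5900206 to 5900305, within intron 9 of F59G1.4. Since the null values lie near 0, the fold depends on the pseudocount: it was -4.30 with 0.5 (adjusted p = 0.131) and -1.87 with 10 (adjusted p = 0.0138), and with 1 library left out it was under 0.05 only without control library 1 (0.0385), being 0.091, 0.105 and 0.175 without null libraries 1, 2 and 3 and 0.436, 0.377 and 0.22 without control libraries 2, 3 and 4.

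lin-4 itself was listed at 0 in all 3 null libraries, against 10.5, 19.3, 37.4 and 2.82 scaled counts in the control libraries. The controls rested on 11, 41, 80 and 5 raw reads, so lin-4 was detected in every control library but at few reads, in total RNA libraries that were not made for small RNAs. The fitted log2 fold change of -3.77 (SE 0.86) depends on the pseudocount and is no bound, and its limma adjusted p was 0.798. The gene, annotated from 5902231 to 5902324 on the plus strand, lies in intron 9 of F59G1.4, which runs from 5898480 to 5902417 and is 3938 bases long. The allele e912 is known as a deletion that removes lin-4, and the zeros match the genotype on the label. Whether the deletion reaches exons of F59G1.4 was not tested, since the tables give no reads by position.

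F59G1.11, a short gene in intron 10, from 5902578 to 5902733, had 1.97, 1.98 and 6.49 scaled counts in null libraries, against 14.4, 19.3, 20.8 and 20.7 in control libraries. The groups did not overlap, yet the log2 fold change of -2.28 (SE 0.50) had a limma adjusted p of 0.798. A pair of minus-strand genes of intron 9, F59G1.12 and F59G1.10, had too little signal in L1 to be tested. F59G1.12 was listed at 0 in the 3 null libraries and at 10.1, 1.7, 5.27 and 0 scaled counts in control libraries, on the scale of the 18 L1 and adult libraries. The strand setting of the counting is not given in the sources used here. Reads of unspliced F59G1.4 RNA, of its intronic genes and of genes antisense to lin-4 cannot be told apart.

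**Figure D1:**
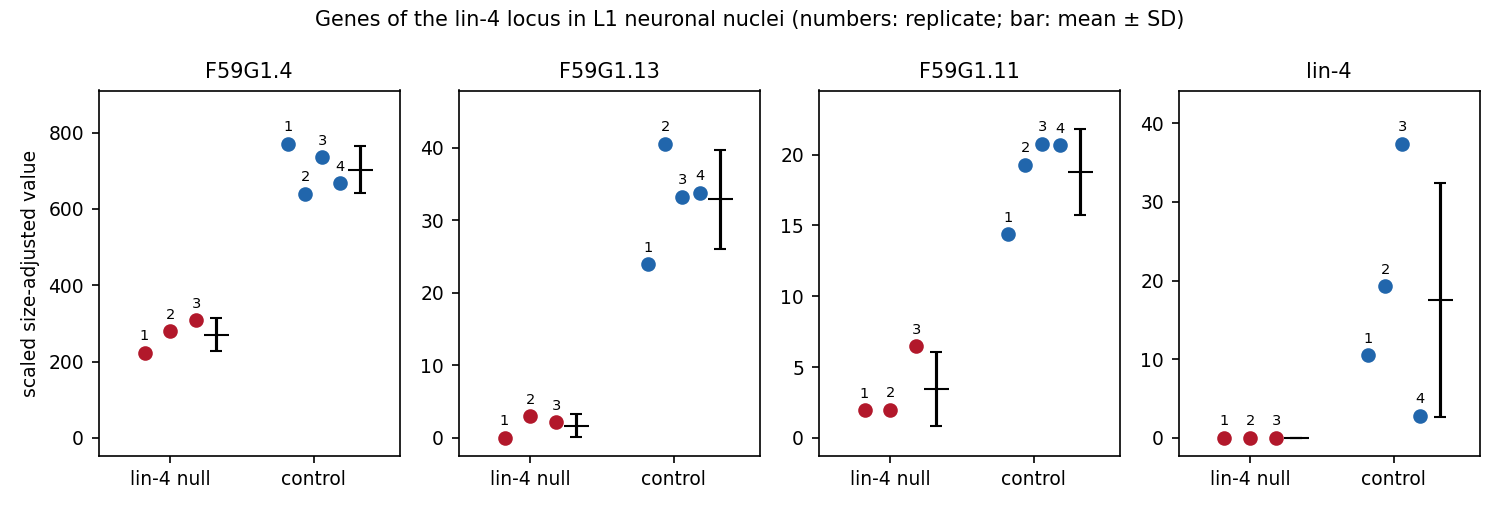
Scaled counts (vertical axes, separate linear scales) of F59G1.4, F59G1.13, F59G1.11 and lin-4 in L1 neuronal libraries, with 3 lin-4 null libraries in red on the left and 4 control libraries in blue on the right; numbers are replicates and bars show the mean ± SD. Every null library lies below every control library in each panel, and lin-4 is at 0 in the 3 null libraries.

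No difference was detectable in the neighbours of F59G1.4 that could be tested. Within 50 kb of the lin-4 start the annotation places 40 genes, of which 19 belong to the authors' set and 12 were tested. The 4 at the locus (F59G1.4, F59G1.13, lin-4 and F59G1.11) were lower in every null library than in any control library, against a background of 172 genes of that kind among all tested (2.93%). The other 8 had overlapping groups and log2 fold changes between -0.26 (F55C12.4) and 0.34 (F55C12.12). Downstream of F59G1.11, the next tested gene was F28B12.1, whose start lies 40733 bases from that of lin-4. The genes between them, such as tsp-18 and vps-35, lie outside the authors' set and were not analysed here in the null. The nearest tested gene upstream by start, F55C12.15, had a log2 fold change of 0.28 (SE 0.29), and it lies within rfip-1, so that their reads may be shared. rfip-1, named for a Rab11 family interacting protein, had 1554, 1354 and 1690 scaled counts in null libraries, against 1455, 1312, 1569 and 1117 in control libraries. casy-1, which encodes the neuronal cell-surface protein calsyntenin, had 20089, 22757 and 22388 scaled counts in null libraries, against 20328, 22244, 18810 and 24187 in control libraries, and a log2 fold change of 0.03 (SE 0.12).

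**Figure D2:**
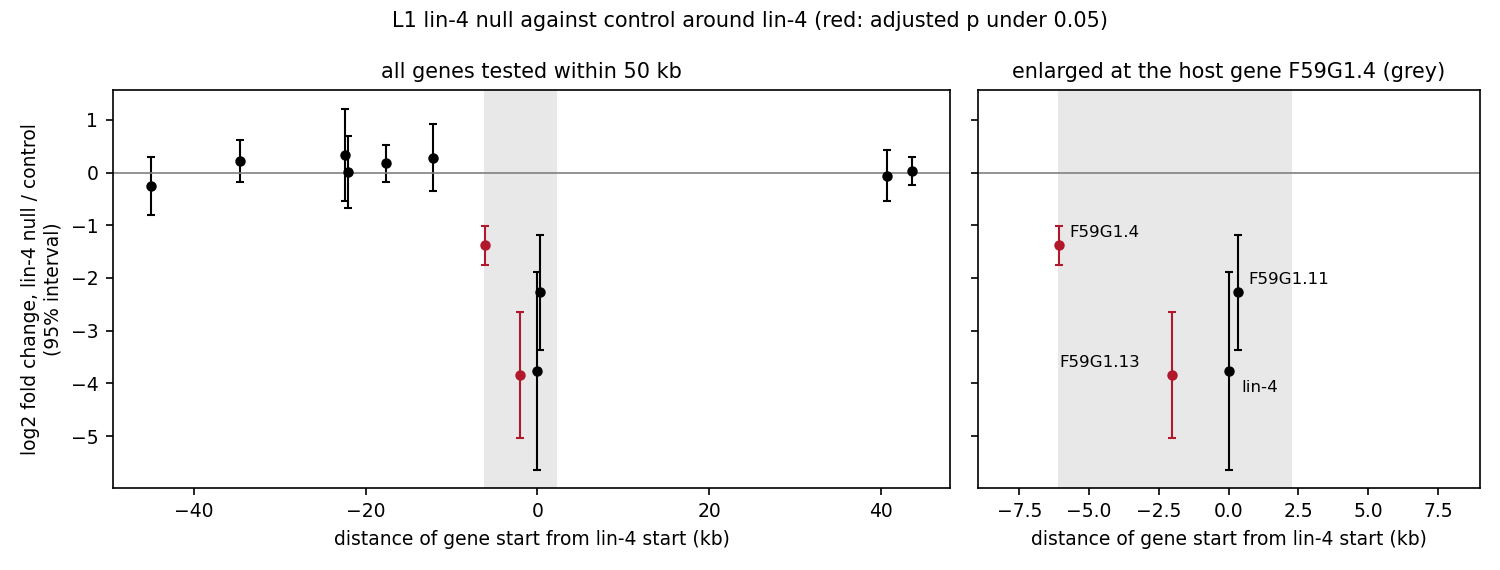
Log2 fold change of lin-4 null over control L1 neurons, with 95% intervals, for the 12 genes tested within 50 kb of lin-4, plotted by the distance of the gene start from the lin-4 start in kb; the right panel enlarges the host gene (grey) and red marks adjusted p under 0.05. The 4 genes at the locus lie between -1.38 and -3.84, and the other 8 lie between -0.26 and 0.34.

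F59G1.4 fell in the null at L1, and in adults its level did not differ detectably from control. In raw reads its level was 89.3 ± 5.27 CPM (raw reads scaled to library total) in control neuronal libraries (SD, n = 4), against 16 ± 2.84 in libraries of all nuclei of the same stage (SD, n = 4). In adults F59G1.4 had 425, 336, 535 and 429 scaled counts in lin-4 null libraries, against 342 to 478 with a median of 389 in the 7 control libraries, on the scale of the 18 libraries. The adult groups overlapped, and the adult log2 fold change was 0.13 (SE 0.15, 95% interval -0.18 to 0.44, limma adjusted p = 0.633). On that scale L1 null libraries had 195, 238 and 267 and L1 control libraries 676, 536, 622 and 564. The adult difference minus the L1 difference was 1.49 on the log2 scale (SE 0.24, 95% interval 1.00 to 1.98, limma adjusted p = 0.000931), and it lay between 1.37 and 1.79 under the 26 alternatives run, at adjusted p up to 0.00733.

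lin-4 and F59G1.13, by contrast, fell in the null at both stages in the fit of 18 libraries. lin-4 was listed at 0 in the 4 adult null libraries and at 3.4 to 25 scaled counts in the 7 adult controls, with a median of 10.4. F59G1.13 had 0, 0.95, 0 and 0 scaled counts in adult null libraries, against 4.01 to 29.5 with a median of 11.3 in adult controls, an adult log2 fold change of -3.47 (SE 0.48, limma adjusted p = 5.84e-05). Its adult difference minus its L1 difference was 0.25 (SE 0.76, 95% interval -1.31 to 1.81), an interval that leaves room for either direction. F59G1.12 was listed at 0 in the 4 adult null libraries, against 3.35 to 17 scaled counts in adult controls. F59G1.11 had 1.78, 2.85, 0 and 3.08 in adult null libraries, against 4.01 to 15.9 with a median of 8.73 in adult controls (adult log2 fold change -1.79, SE 0.46, limma adjusted p = 0.012).

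lin-14, the best-known target of lin-4, did not differ detectably at L1. It had 3406, 2502 and 3128 scaled counts in null libraries, against 3303, 2435, 2656 and 3842 in control libraries. The groups overlapped throughout, and the log2 fold change was -0.01 (SE 0.18, 95% interval -0.40 to 0.38, limma adjusted p = 0.999). These are reads of nuclear RNA over the gene, so cytoplasmic mRNA and LIN-14 protein were not measured. In control L1 animals lin-14 stood at 391 ± 91.7 CPM in neuronal libraries, against 215 ± 6.44 in libraries of all nuclei (SD, n = 4 each).

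In adults lin-14 had 2492, 2561, 3191 and 3023 scaled counts in lin-4 null libraries, against 1958 to 2609 with a median of 2400 in control libraries. The adult groups overlapped slightly, with a log2 fold change of 0.29 (SE 0.14, limma adjusted p = 0.2). The adult difference minus the L1 difference was 0.28 (SE 0.22, 95% interval -0.19 to 0.74, adjusted p = 0.57).

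Other genes of the timing pathway and the microRNA machinery also lacked a call at L1. Of 35 genes on that list, 14 are in the authors' set and 11 were tested, with 0 higher, 0 lower and a median log2 fold change of -0.03, against -0.0036 over all tested genes. At an unadjusted p under 0.05 in limma, 0 were higher and 2 lower, beside 1.53% and 2.39% of all tested genes. Those 2 were lin-4 itself, the gene removed in the null, and myrf-1. lin-28, lin-41, lin-29, hbl-1, lin-46 and lin-42 lie outside the authors' set and were not analysed here in the null. ain-1, a cofactor of the microRNA effector complex, had a log2 fold change of 0.05 (SE 0.14), and alg-1, a microRNA-binding Argonaute, had -0.03 (SE 0.26). kin-20, a casein kinase, had 0.02 (SE 0.14), daf-12, a steroid-hormone receptor, had -0.06 (SE 0.19), and lin-66 had 0.00 (SE 0.15). The zinc-finger gene sea-2 had -0.03 (SE 0.12). mab-10, a transcription cofactor of late development, was low at L1, with 9.83, 20.8 and 31.4 scaled counts in null libraries, against 38.3, 5.07, 9.35 and 34.8 in control libraries.

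myrf-1 encodes a membrane-anchored transcription factor that is known to drive lin-4 expression, together with its relative myrf-2 and the transmembrane protein PAN-1. myrf-1 had 1825, 2060 and 2519 scaled counts in null libraries, against 2759, 3008, 2460 and 5751 in control libraries. The groups overlapped by 1 library and control library 4 stood high, and the log2 fold change of -0.64 (SE 0.26) had an unadjusted p of 0.0328 and a limma adjusted p of 0.994. pan-1 had 1020, 1255 and 1441 in null libraries, against 1857, 2092, 1887 and 3920 in control libraries. Its groups did not overlap, control library 4 was again the highest, and the log2 fold change of -0.92 (SE 0.25) had a limma adjusted p of 0.994. myrf-2 had a log2 fold change of -0.17 (SE 0.16) with overlapping groups.

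The 10 genes of lowest p that missed the threshold included F59G1.11 and lin-4 and 8 genes elsewhere in the genome, 2 of them higher and 6 lower in the null. C49G7.10, on chromosome V, had 74.7, 72.3 and 71.4 scaled counts in null libraries, against 27.8, 26.4, 34.3 and 31.9 in control libraries. The null libraries stood at 242% of the control mean with no overlap, with a log2 fold change of 1.25 (SE 0.27, limma adjusted p = 0.798). fbxa-24, which encodes an F-box protein, had 278, 240 and 227 in null libraries, against 98.7, 130, 162 and 113 in control libraries, a log2 fold change of 0.99 (SE 0.22). irld-11, which encodes an insulin- and EGF-receptor-like domain protein, had 43.3, 44.6 and 41.1 in null libraries, against 84.3, 86.3, 84.2 and 101 in control libraries, a log2 fold change of -1.03 (SE 0.24).

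The groups did not overlap in any of the 8 genes, which is largely a result of choosing them by low p. Over all tested genes, 2.93% were lower and 2.71% higher without overlap. linc-56, a long noncoding RNA, had 383, 458 and 389 scaled counts in null libraries, against 653, 783, 574 and 704 in control libraries (log2 fold change -0.72, SE 0.17). capa-1, a neuropeptide gene, had 284, 337 and 256 in null libraries, against 572, 549, 413 and 427 in control libraries (log2 fold change -0.74, SE 0.19). C13G3.1, C54D2.2 and T23D8.13 had log2 fold changes of -1.19 (SE 0.29), -0.78 (SE 0.20) and -1.40 (SE 0.34). Without a block the adjusted p of the 8 genes lay between 0.798 and 0.994.

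**Figure D3:**
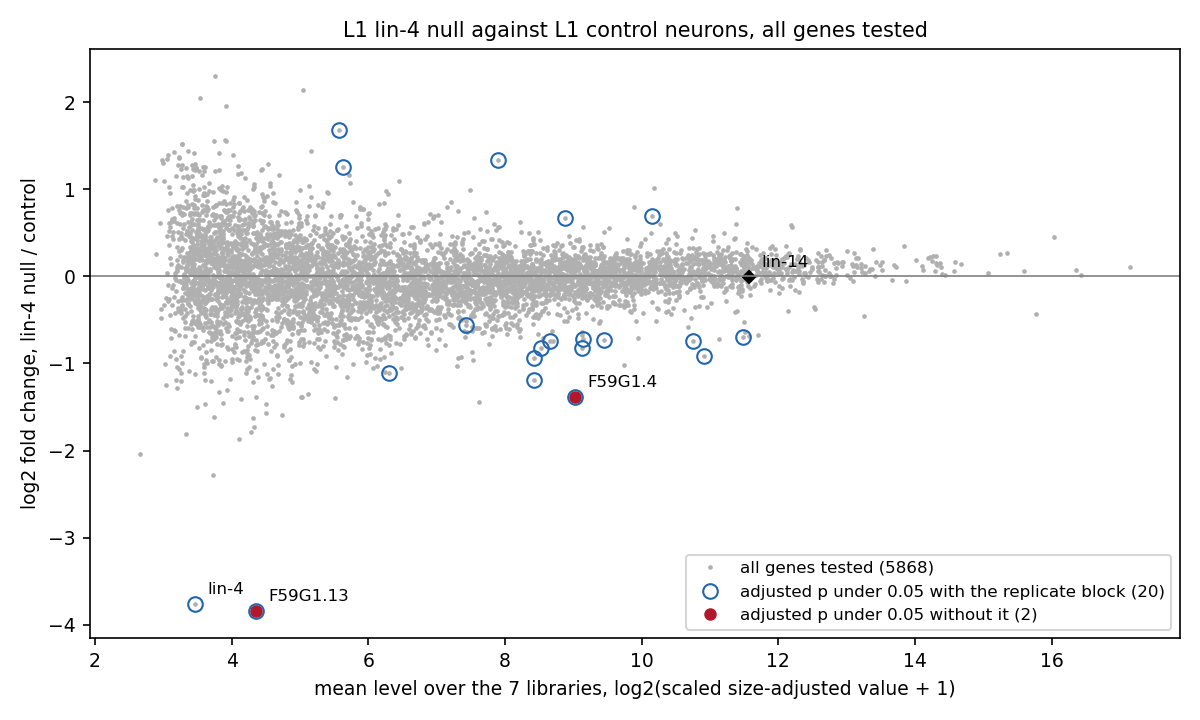
Log2 fold change of lin-4 null over control L1 neurons (vertical axis) by mean level over the 7 libraries, log2(scaled count + 1) (horizontal axis), for 5868 genes; red points passed the adjusted p without the replicate block (2), blue rings passed it with the block (20), and the black diamond is lin-14. F59G1.4, F59G1.13 and lin-4 lie apart from the cloud, while lin-14 lies at -0.01.

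Null and control libraries with the same replicate number varied together, and a paired comparison was also run. The pairing was inferred from the shared numbers and from these same data. Control library 4 has no partner and adds nothing to the paired difference. Over 5868 genes the deviations from the group means correlated at 0.47, 0.42 and 0.22 for numbers 1, 2 and 3. Between unlike numbers, null library 2 with control library 3 reached 0.17 and null library 3 with control library 2 reached 0.15, and the other combinations lay between -0.46 and 0.076. With the replicate number as a block, 20 genes passed (0.341%), 5 higher (0.0852%) and 15 lower (0.256%), and both genes called without the block were among them. F59G1.4 then had a log2 fold change of -1.41 (SE 0.14, limma adjusted p = 0.000856), F59G1.13 had -3.82 (adjusted p = 0.00427) and lin-4 had -4.38 (adjusted p = 0.040). The genes named from this fit were chosen after their values were seen. Without the pairs numbered 1, 2 and 3, the block gave 311, 10 and 24 calls, of which 19, 6 and 11 were among the 20. The paired p-values rest on 3 pairs, or on 2 where a pair was left out. They therefore lean on the variance that limma estimates across genes. In each of these fits 19 of the 20 genes could be tested and had the same direction as with all pairs, while lin-4 had too little signal left to be tested. The 20 genes were chosen for low p in these same pairs and had the same direction in every pair. Their agreement in direction therefore follows from how they were chosen.

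The genes called with the block included peptide, receptor and noncoding genes outside the lin-4 locus. snet-1, a neuropeptide gene known to affect olfactory plasticity, had 1616, 2365 and 2376 scaled counts in null libraries, against 2600, 3657, 3278 and 4245 in control libraries, with log2 ratios of -0.69, -0.63 and -0.46 in pairs 1 to 3 (block log2 fold change -0.59, SE 0.09, limma adjusted p = 0.0191). C13G3.1 had log2 ratios of -1.07, -0.99 and -1.04 (block adjusted p = 0.00427). gcy-1, a receptor-type guanylyl cyclase of salt-sensing neurons, had 159, 34.7 and 41.1 in null libraries, against 52.7, 10.1, 14.5 and 14.1 in control libraries, with log2 ratios of 1.58, 1.68 and 1.44 (block log2 fold change 1.56, SE 0.27, adjusted p = 0.036).

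In gcy-1, both libraries numbered 1 were the highest of their group, and the pairs had similar ratios although the unpaired groups overlapped. C49G7.10 had pair ratios of 1.39, 1.42 and 1.04, and F46A8.13, on chromosome I, had 0.92, 1.68 and 1.35. pan-1 had pair ratios of -0.86, -0.74 and -0.39 (block log2 fold change -0.66, adjusted p = 0.0258) without the unpaired control library 4. his-37, a histone H4 gene, fell by 0.62 (adjusted p = 0.0388), and ipla-2, a phospholipase A2 gene, rose by 0.64 (adjusted p = 0.0388). The others were linc-56, F53A2.9, 21ur-15244 and F20B6.4 among the lower, Y53F4B.45 among the higher, and the peptide genes described next.

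Neuropeptide genes leaned to the lower side in lin-4 null L1 neurons as a group. These genes encode precursors of signalling peptides: the flp family of FMRFamide-like peptides, the nlp family of other neuropeptides and the insulin-like peptides. Of 98 in the authors' set 92 were tested, and without the block 0 were called higher and 0 lower, at a background of 0.0341% lower. Over the 92 genes the median log2 fold change was -0.28 and 71 of them lay below 0, against a median of -0.0036 and 2974 of 5868 below 0 over all tested genes. By family the medians were -0.18 for 30 flp genes, -0.32 for 42 nlp genes and -0.38 for 20 insulin-like genes.

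At an unadjusted p under 0.05 there were 14 lower peptide genes and 1 higher, and 11 were lower and 0 higher in every null library than in any control library, beside 2.93% and 2.71% of all tested genes. With the replicate block 5 fell and 0 rose, at backgrounds of 0.256% and 0.0852%: snet-1, capa-1, nlp-51, nlp-37 and flp-19. At an unadjusted p under 0.05 the block gave 35 lower and 2 higher, beside 6.94% and 4.6% of all tested genes. The lists were made from gene names with results of these data known, and the counts describe them without a test of the list. Per library, the median of the 92 on the log2 scale was 8.74, 9.11 and 9.20 in null libraries, against 8.92, 9.58, 9.29 and 9.38 in control libraries. These medians overlapped, and within each pair of replicate numbers the null was the lower one. The medians of all tested genes were 6.30, 6.38 and 6.32 in null libraries, against 6.30, 6.50, 6.48 and 6.43 in control libraries. In pairs 2 and 3 the null was the lower one there too, and in pair 3 by more than for the peptide genes. In bulk nuclei, fewer cells that make a peptide and less RNA per cell cannot be told apart.

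Single members are given here, picked for low p with or without the block, so they do not stand for the typical peptide gene. pdf-1, a pigment-dispersing-factor-like peptide gene that acts in locomotor arousal, had 1920, 2197 and 2586 scaled counts in null libraries, against 2646, 4236, 3109 and 4693 in control libraries (log2 fold change -0.69, SE 0.20, limma adjusted p = 0.994). ins-14, an insulin-like peptide gene, had 49.2, 48.5 and 57.3 in null libraries, against 77.6, 75.1, 90.4 and 159 in control libraries (log2 fold change -0.88, SE 0.30). flp-24 had 816, 578 and 740 in null libraries, against 1263, 959, 884 and 1646 in control libraries (log2 fold change -0.71, SE 0.22).

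pdf-1, ins-14 and flp-24 had no overlap between groups, which is largely a result of choosing them by low p, and none passed the adjusted threshold. nlp-51 had 113, 283 and 288 in null libraries, against 220, 610, 396 and 496 in control libraries, with pair ratios of -0.96, -1.10 and -0.46 on the log2 scale (block adjusted p = 0.0374). flp-19 had 781, 1541 and 1335 in null libraries, against 1029, 2747, 1929 and 2665 in control libraries, with pair ratios of -0.40, -0.83 and -0.53 (block adjusted p = 0.0385). In both genes the libraries numbered 1 were the lowest of their group, so that the unpaired groups overlapped. flp-3 went the other way, with 1745, 1332 and 1440 in null libraries, against 1629, 973, 849 and 699 in control libraries (log2 fold change 0.60, SE 0.25, adjusted p = 0.994). Peptide receptors, 94 genes, had a median of -0.11 with 64 below 0.

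**Figure D4:**
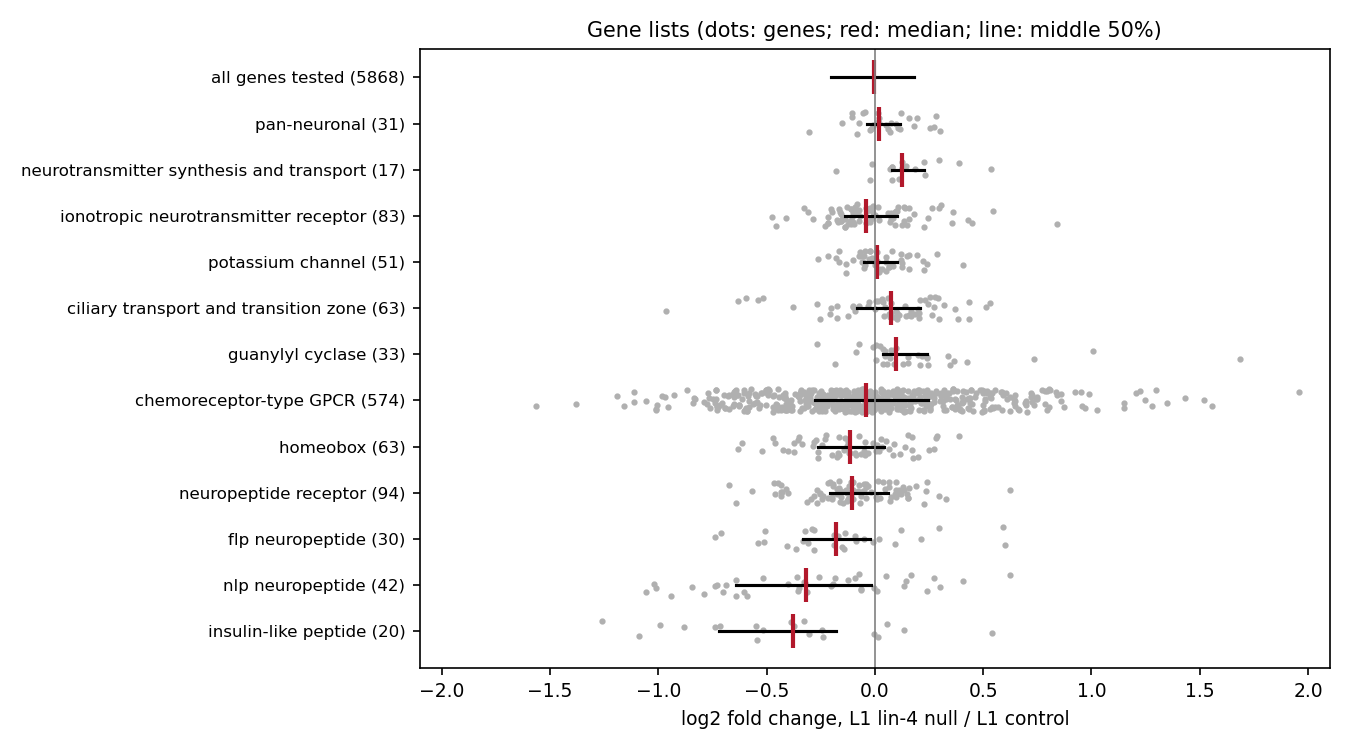
Log2 fold change of lin-4 null over control L1 neurons (horizontal axis) for genes of 12 lists (grey dots; number tested in brackets), with the median in red and the middle 50% of genes as a line; the top line gives all 5868 genes. The medians of the 3 peptide lists lie at -0.18, -0.32 and -0.38, and the pan-neuronal list at 0.02.

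Most other neuronal gene groups were centred near 0. Of the 33 lists, 0 had a called member in the fit without a block, and 5 had no gene in the authors' set. The 31 pan-neuronal genes, such as synaptic vesicle and neuropeptide-processing genes, had a median of 0.02 and a range of -0.30 to 0.30. The 17 genes of neurotransmitter synthesis and transport had a median of 0.13 with 3 below 0, and the GABA synthesis gene unc-25 had the lowest p among them (log2 fold change 0.54, SE 0.19, limma adjusted p = 0.994). The medians were -0.04 for 83 ionotropic receptor genes, 0.01 for 51 potassium channel genes and -0.00092 for 7 innexin genes.

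No sensory gene was called without the block, and the lists differed in where they were centred. The 574 chemoreceptor-type receptor genes tested, of 906 in the authors' set, had a median of -0.04, with 10 higher and 13 lower at an unadjusted p under 0.05, beside 1.53% and 2.39% of all tested genes. The 33 guanylyl cyclase genes had a median of 0.10 with 5 below 0, and 3 were higher and 0 lower at an unadjusted p under 0.05: gcy-13 (log2 fold change 1.01), gcy-1 (1.68) and gcy-19 (0.43). The 63 genes of ciliary transport had a median of 0.08 with 19 below 0, and 4 were higher and 1 lower at an unadjusted p under 0.05. Among them osm-5, a subunit of the intraflagellar transport complex, had 0.52 (SE 0.19, adjusted p = 0.994). Among regulators, the 63 homeobox genes had a median of -0.11 and the 90 nuclear hormone receptor genes one of 0.08. unc-86, a POU homeobox gene of sensory and other neurons, had the lowest p of the homeobox list (log2 fold change -0.35, SE 0.16, adjusted p = 0.994).

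The same genotype comparison in adults gave many more calls than in L1. With the 18 L1 and adult libraries in 1 limma fit, 750 of 6178 genes differed between lin-4 null and control adults (12.1%), 340 higher (5.5%) and 410 lower (6.64%). The L1 and adult comparisons share no libraries. Adults had 4 null and 7 control libraries and L1 had 3 and 4, so the counts were not reached at equal power. Of the 340 genes higher in adult nulls, 324 were tested in L1, where their median log2 fold change was -0.07, beside the adult median of 1.04 that follows from how they were chosen. Of these, 7 were higher and 18 lower in L1 at an unadjusted p under 0.05, beside 1.53% and 2.39% of all tested genes. Of the 410 lower genes, 399 were tested in L1, with a median of 0.05 there and -0.69 in adults. Of these, 7 were lower and 6 higher in L1 at an unadjusted p under 0.05. In the L1 fit of 7 libraries, 0 of the adult-higher genes and 1 of the adult-lower genes, F59G1.13, were called. The L1 comparison within the fit of 18 libraries called 4 of 6178 genes (0.0647%): C49G7.10 was higher (log2 fold change 1.27, SE 0.22, limma adjusted p = 0.0173), and F59G1.4 (adjusted p = 0.000882), F59G1.13 (adjusted p = 0.00504) and lin-4 (adjusted p = 0.0259) were lower. Of these 4, F59G1.13 and lin-4 were also lower in adults.

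The difference between the stages was tested directly as the adult effect minus the L1 effect. It passed for 87 of 6178 genes (1.41%), 36 with a more positive effect in adults (0.583%) and 51 with a more negative one (0.826%). Of these 87, 84 were called in adults and 1 in L1, F59G1.4. The count depended on single libraries: it was 40, 53 and 28 without L1 null libraries 1, 2 and 3, 50 and 47 without L1 control libraries 2 and 4, 49, 174 and 31 without adult null libraries 2, 3 and 4, and 151 without adult control library 6. With no factor divided out it was 201, split into 174 and 27, and with adult control libraries 1 to 3 alone it was 477. Adult libraries also varied together across genotypes in ways the fit does not model: deviations of null libraries 1 and 2 correlated with those of control libraries 2 and 3 at 0.22 to 0.44, and those of null libraries 3 and 4 with control libraries 6 and 7 at 0.20 to 0.45. How far this bears on the adult and stage counts was not tested. Adults of the 2 genotypes also differed in hours after plating, and L1 larvae did not.

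myrf-1 and pan-1 rose in adult nulls, and their effects differed between the stages. In adults myrf-1 had 4776, 7196, 7388 and 7006 scaled counts in null libraries, against 1511 to 2609 with a median of 2081 in control libraries, and all null libraries were higher (log2 fold change 1.67, SE 0.19, limma adjusted p = 1.22e-05). The adult minus L1 difference of myrf-1 was 2.28 (SE 0.31, adjusted p = 0.000373). pan-1 had 2322, 3690, 4534 and 3994 in adult null libraries, against 963 to 1793 with a median of 1297 in control libraries, and an adult minus L1 difference of 2.36 (SE 0.32, adjusted p = 0.000373). In L1 neither gene was called without the block, and with it pan-1 fell and myrf-1 was not called (adjusted p = 0.275).

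Reads over let-7, the gene of a later microRNA of the timing pathway, were near 0 at L1 in both genotypes. They stood at 0, 2.52 and 4.68 scaled counts in null libraries, against 0, 0.851, 4.4 and 6.35 in control libraries. The libraries held total nuclear RNA and were not made for small RNAs, so mature microRNAs were not measured. In adults let-7 had 307, 160, 167 and 200 in null libraries, against 1.34 to 10.1 with a median of 4.53 in control libraries. Its adult minus L1 difference was 5.40 (SE 0.85, limma adjusted p = 0.000931). Its relatives mir-48 and mir-241 were likewise at 0 to 2.81 in the L1 libraries of both genotypes. Their adult log2 fold changes were 2.02 (SE 0.50, limma adjusted p = 0.010) and 1.39 (SE 0.45, adjusted p = 0.0444), and the adult minus L1 differences, 2.23 and 1.48, had adjusted p of 0.133 and 0.276.

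Among the genes with low values in L1 nulls, snet-1 and linc-56 rose in adult nulls. snet-1 had an adult log2 fold change of 0.60 (SE 0.19, limma adjusted p = 0.0435) and an adult minus L1 difference of 1.28 (SE 0.31, adjusted p = 0.0343). linc-56 had 460, 462, 163 and 321 scaled counts in adult null libraries, against 98.5 to 254 with a median of 141 in controls, with overlap between the groups, and a difference of 1.82 (SE 0.38, adjusted p = 0.0172). C13G3.1 had a difference of 1.69 (SE 0.39, adjusted p = 0.0282), while its adult effect of 0.53 was not called (adjusted p = 0.175). These differences missed the threshold under some alternatives. The adjusted p of snet-1 was 0.126 in a fit of 26 libraries, 0.101, 0.058 and 0.065 without L1 null libraries 1, 2 and 3, 0.0675 and 0.0927 without L1 control libraries 2 and 4, 0.0539 and 0.0877 without adult null libraries 2 and 4 and 0.0547 without adult control library 4. That of linc-56 was 0.0534 and 0.0627 without L1 null libraries 1 and 3. That of C13G3.1 was 0.0959 and 0.0655 without the same libraries, 0.0642 and 0.0779 without L1 control libraries 2 and 4, and 0.0689 and 0.0822 without adult null libraries 2 and 4. For capa-1 the difference of 1.65 (SE 0.55) had an adjusted p of 0.114. fbxa-24 and gcy-1 rose in adult nulls (limma adjusted p = 0.00532 and 0.00859): fbxa-24 had adult and L1 log2 fold changes of 1.02 and 1.01, and gcy-1 had 1.98 and 1.69, with differences of 0.00 (95% interval -0.74 to 0.74) and 0.29 (95% interval -1.27 to 1.85).

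The lists were also counted in adults. Of the 574 chemoreceptor-type genes, 54 were higher and 2 lower in adults, beside 5.5% and 6.64% of all genes, and 0 were called in L1. The adult minus L1 difference of single genes passed for 1 of them in the higher direction and for 0 in the lower one. Of the 33 guanylyl cyclase genes 10 were higher and 1 lower in adults, and of the 63 ciliary genes 12 were higher and 0 lower, and the adult minus L1 difference passed for 0 genes of either list in either direction. The 92 peptide genes had 8 higher and 6 lower in adults, with a median of 0.06 there and -0.28 in L1.

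**Figure D5:**
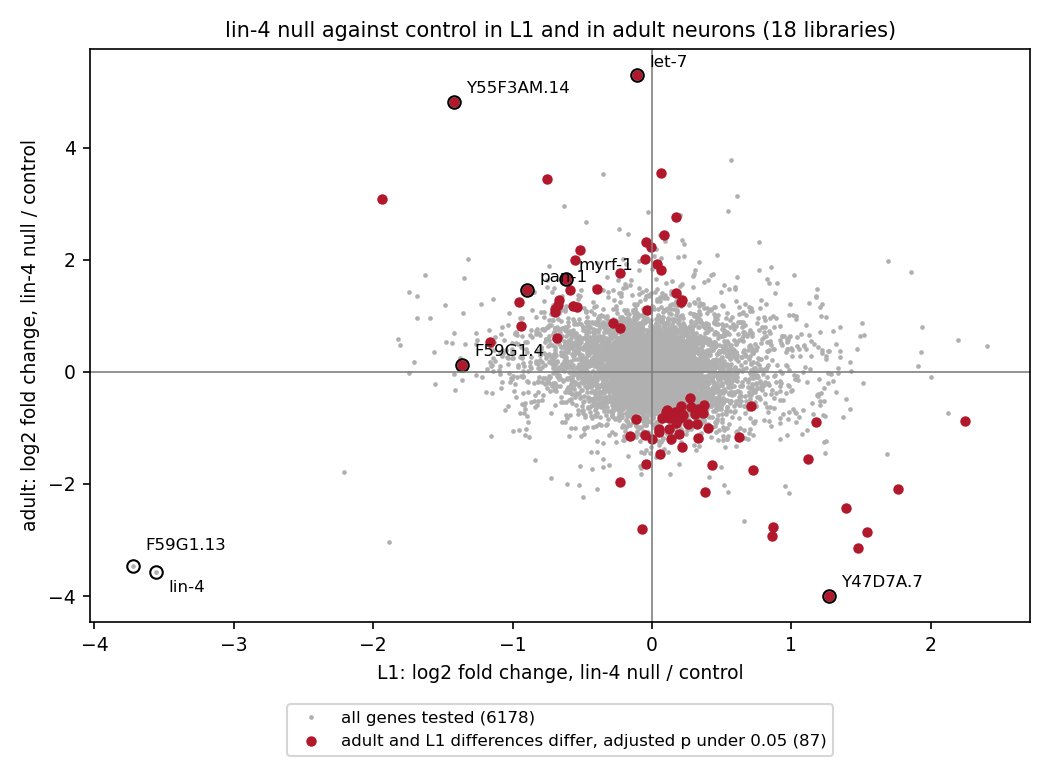
Log2 fold change of lin-4 null over control in adult neurons (vertical axis) and in L1 neurons (horizontal axis), from 1 fit of 18 libraries, for 6178 genes; red marks the 87 genes whose adult and L1 effects differ at an adjusted p under 0.05, and rings mark named genes. lin-4 and F59G1.13 are low at both stages, F59G1.4 is low in L1 alone, and most red points lie far from 0 on the adult axis.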

How the data were processed

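Nuclear RNA of pulled-down neuronal nuclei was sequenced; reads were aligned with Subread, assigned with featureCounts and compared with DESeq2, per the submitters' processing notes, with versions, genome build and strand setting not given in the sources used here. The deposited counts per gene cover control libraries only (8582120 to 18122090 reads in L1 neuronal libraries). The values of the size-adjusted table are used as a score: in it the authors brought each library to the same total over 7974 genes, in whole numbers, as 100% of control values equal rescaled raw counts (tolerance 0.501). The deposited mutant table holds a signal, size-adjusted values divided by factors; because 3.15% of values of 844 genes at or above 500 carried the factor of their own library, within 0.5%, it was used only as an alternative. The developmental table was not used.

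Size-adjusted values were divided by 1 median-ratio factor per library and tested with limma 3.58.1 (R 4.3.3, trend and robust variance) on log2(value + 1), for genes with at least 10 in 3 libraries, and p-values were adjusted by Benjamini-Hochberg over all tested genes (threshold 0.05). Fold changes are on the log2(value + 1) scale, which understates the change of low genes. The L1 comparison was fitted on 7 libraries and the stage difference on 18, so scaled counts differ slightly between these. Tables were joined with pandas 2.3.3 and numpy 2.4.6. The fitting steps were also tested on simulated data.

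Replicate numbers were taken to pair L1 libraries, since same-numbered deviations correlated at 0.47, 0.42 and 0.22, each over 0.1. Of the unlike L1 numbers, null 2 with control 3 (0.17) and null 3 with control 2 (0.15) were over 0.1 too. The adult numbers were not taken to pair (0.07, 0.28, -0.39 and 0.03), although unlike adult numbers correlated between -0.49 and 0.45. Nothing in the labels describes replicates as separate cultures, and p-values therefore measure a spread that may be technical. Named genes are those of the heterochronic list, those within 50 kb of lin-4, called genes, the 10 lowest p not called and the 5 largest stage differences each way. The members and lists were chosen with earlier results of these data known. Alternatives were pseudocounts of 0.5 and 10, no filter, no factor, factors or fits over 26 libraries, the deposited mutant table, the replicate block, adult control subsets and leaving out each library.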

Additional observations from a re-analysis of the deposited data

Results flagged for a closer look

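Single libraries stood apart from the rest of their group in 13 of the 67 groups of at least 4 libraries examined. A nominal chance rate of about 1 in 20 cannot be set against this count. The genes share libraries, and many were chosen by their values. The measure is the gap of the extreme library to its nearest neighbour as a share of the range of its group, on the scale of the gene's scaled counts. In the L1 controls, library 4 was high for myrf-1 (0.833), pan-1 (0.886), irld-11 (0.879), Y55F3AM.14 (0.929) and ZC434.3 (0.913). L1 control library 1 was high for gcy-1 (0.897), grl-25 (0.843) and C17F4.3 (0.860), and L1 control library 2 was low for C07E3.10 (0.975). In adult nulls, F59G1.13 was above 0 in library 2 alone (1), grl-25 was high in library 2 (0.917) and lov-1 in library 3 (0.962). In adult controls lov-1 was high in library 4 (0.62).

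The adult effect of the lin-4 null minus its L1 effect passed the adjusted threshold of limma for named genes in both directions, on the log2 scale. It was 1.49 for F59G1.4 (SE 0.24, adjusted p = 0.000931), 2.28 for myrf-1 (SE 0.31, adjusted p = 0.000373) and 5.40 for let-7 (SE 0.85, adjusted p = 0.000931). Y55F3AM.14 had 6.25 (SE 0.88, adjusted p = 0.000905), with 1680, 2183, 2372 and 2303 scaled counts in adult nulls, against 32.3 to 261 in adult controls. C07E3.10 had 5.02 (SE 0.79, adjusted p = 0.000931), ZC434.3 had 4.20 (SE 0.55, adjusted p = 0.000373) and C17F4.3 had 3.48 (SE 0.76, adjusted p = 0.0201). In the other direction, Y47D7A.7 had -5.26 (SE 1.1, adjusted p = 0.0183), F40G12.2 had -4.62 (SE 0.69, adjusted p = 0.000753) and col-164, a collagen gene, had -3.85 (SE 0.79, adjusted p = 0.0156). lov-1, a polycystin gene of male sensory cilia, had -3.82 (SE 0.83, adjusted p = 0.0201), and grl-25, a hedgehog-related gene, had -4.41 (SE 1.1, adjusted p = 0.0491), which passed under 7 of 26 alternatives. Y47D7A.7, F40G12.2, col-164 and let-7 had too little signal to be tested in the L1 fit. Over the alternatives run, F40G12.2 ranged from -5.47 to -1.55, col-164 from -4.50 to -1.33 and lov-1 from -4.31 to -1.71. C07E3.10 was near 0 in L1 nulls (2.95, 0.99 and 0 scaled counts) and ranged from 2.77 to 5.80. Y47D7A.7 had -1.90 with a pseudocount of 10 (adjusted p = 0.0841) and missed the threshold with the replicate block (0.0549), as lov-1 did (0.0575). Some missed it with 1 library left out: C17F4.3 (0.0715 without L1 null 1, 0.0621 without adult null 4), Y47D7A.7 (0.0534 and 0.058 without L1 null 1 and 2, 0.0526 without adult null 4), col-164 (0.0534 without L1 null 1) and lov-1 (0.0707 and 0.0643 without L1 null 2 and 3, 0.0541 and 0.0515 without L1 control 2 and 4, 0.0604 without adult null 4).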

How the results depend on the processing

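The L1 comparison called 2 genes, and also 2 with a pseudocount of 10, no filter, no factor or factors over 26 libraries. It called 1 with a pseudocount of 0.5, 1 with the deposited mutant table and 4 in a fit of 26 libraries, which added lin-4 and C49G7.10. Leaving out 1 library gave 0 to 2 calls, with 2 only without control library 1 (unadjusted p under 0.05: 135 to 214 genes, limma). Without both libraries numbered 1 it was 0 (329 unadjusted). The replicate block gave 20 (5 higher, 15 lower) and, without the pairs numbered 1, 2 and 3, 311, 10 and 24. The stage difference called 87 genes, 80 with a pseudocount of 0.5 and 75 with no filter. It called 133 with a pseudocount of 10, 201 with no factor (174 higher, 27 lower), 54 in the fit of 26 libraries, 221 with the replicate block (adult numbers do not pair) and 477 with adult control libraries 1 to 3 (277 higher, 200 lower). Leaving out 1 library gave 28 to 174. F59G1.4 had log2 fold changes of -1.24 to -1.48 without 1 library and lin-14 -0.12 to 0.15 over 19 alternatives. Fits with fewer libraries gave fewer calls in some cases and more in others, and the cause was not tested. lin-4 rests on 5 to 80 raw reads per control library, which limits its precision.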

Other observations

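Chromosome II, which carries lin-4, held 13.5% of the tested genes, 48 of the 230 genes with an unadjusted p under 0.05 in L1 (20.9%) and 6 of the 20 genes called with the replicate block, among them lin-4, F59G1.4 and F59G1.13. Chromosome X held 21.9% of the tested genes, 19.6% of those 230 and 7 of the 20.

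C49G7.10 averaged 64.2 scaled counts in lin-4 null L1 neurons on the scale of all 37 neuronal libraries. Among control stages it averaged 26.2 in L1, 72.4 in L2, 151 in L4 and 191 in adults. F59G1.4 averaged 238 in lin-4 null L1 neurons, and 612, 549, 689 and 387 in control L1, L2, L4 and adult neurons.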
